A study of Homo sapiens with 6 samples.

Results

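Parental CCRF-CEM cells, an established human T lymphoblast leukemia line, were compared for H3K27ac after 4 h of camptothecin and after vehicle. The 2 libraries are labelled wild-type and SLFN11-positive; one received 100 nM camptothecin for 4 h and the other received DMSO. H3K27ac was read by chromatin immunoprecipitation and sequencing, and each library comes with the authors' own list of broad peaks, placed on hg19. The series also holds a parental library at 2 h and 3 libraries of SLFN11-knockout cells (DMSO, 2 h, 4 h), which are used here only as further readings of the same loci. With 1 library per condition, nothing below could be checked against replicates, and no test between conditions was run.

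Peaks on chromosomes 1 to 22 and X were ranked by the authors' −log10 p, and the 30000 strongest peaks of each library were kept, so that both lists had the same length. Joining overlapping peaks of these 2 lists gave 37690 loci. The whole series of 6 libraries holds 1440888 deposited peaks. A locus is called marked in a library when one of its 30000 peaks lies there. It is called gained when marked only at 4 h and lost when marked only in DMSO. A locus marked in both is called widened or narrowed when its covered length (the bases under peaks) differed by at least 1000 bp and by at least 1.5 times.

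H3K27ac is an acetyl group on lysine 27 of histone H3, placed mainly by the acetyltransferases EP300 and CREBBP at active promoters and enhancers, and wide stretches of it are typical of genes that define a cell type. Camptothecin traps topoisomerase 1 on DNA, which stalls replication forks and elongating RNA polymerase. SLFN11 is recruited to stalled forks, and the study's title sets its question as chromatin remodeling and the activation of immediate early genes under replication stress. Immediate early genes such as FOS and EGR1 encode transcription factors induced without new protein synthesis, and DNA damage can also activate NF-kB, whose targets include genes of its own subunits and inhibitors.

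Genes are named from general knowledge of where they lie on hg19, because an annotation of that build was not used here. "At the start" means within 2000 bp of a transcription start. The promoters of BCL3, NFKB2, EGR1 and FOS are shown as examples. H3K27ac at these starts stood higher in the ranking at 4 h than in DMSO, and each was picked to hold a match to a motif searched. For NFKB2 the first listed start with such a match is shown. These promoters come from RefSeq on GRCh38.p14 and run from 250 bases before to 50 bases after a start. They are written 5′ to 3′ along the gene, each on the plus strand. Capitals mark matches on either strand to the κB consensus in BCL3 (chromosome 19) and NFKB2 (chromosome 10, one of 3 listed starts), to the CArG box in EGR1 (chromosome 5), and to TGACG, the core of the cyclic AMP response element, in FOS (chromosome 14).
BCL3: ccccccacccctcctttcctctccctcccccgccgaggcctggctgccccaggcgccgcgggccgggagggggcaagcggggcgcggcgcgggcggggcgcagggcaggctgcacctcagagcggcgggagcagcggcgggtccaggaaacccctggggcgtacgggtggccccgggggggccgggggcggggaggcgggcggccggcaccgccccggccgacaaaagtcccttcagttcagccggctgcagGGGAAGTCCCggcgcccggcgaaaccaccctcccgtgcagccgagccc
NFKB2: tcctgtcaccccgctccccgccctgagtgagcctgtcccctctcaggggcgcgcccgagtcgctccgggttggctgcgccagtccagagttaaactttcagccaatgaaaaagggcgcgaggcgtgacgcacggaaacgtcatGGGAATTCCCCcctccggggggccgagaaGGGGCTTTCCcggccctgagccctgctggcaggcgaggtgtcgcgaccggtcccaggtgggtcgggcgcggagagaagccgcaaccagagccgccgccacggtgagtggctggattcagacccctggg
EGR1: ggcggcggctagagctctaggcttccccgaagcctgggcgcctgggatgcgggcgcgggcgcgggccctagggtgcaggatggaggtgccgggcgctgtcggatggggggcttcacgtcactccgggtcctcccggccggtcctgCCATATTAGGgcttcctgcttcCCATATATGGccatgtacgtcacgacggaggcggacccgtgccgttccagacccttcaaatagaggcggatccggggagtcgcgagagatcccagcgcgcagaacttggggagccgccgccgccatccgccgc
FOS: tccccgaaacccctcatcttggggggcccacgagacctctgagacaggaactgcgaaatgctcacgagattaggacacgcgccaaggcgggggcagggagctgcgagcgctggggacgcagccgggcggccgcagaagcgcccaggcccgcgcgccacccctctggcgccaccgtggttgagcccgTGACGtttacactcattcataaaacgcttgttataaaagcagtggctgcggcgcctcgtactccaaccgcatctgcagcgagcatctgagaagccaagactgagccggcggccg

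The κB consensus was held by 5.91% of 34796 distinct RefSeq promoters of the same length, the CArG box by 1.30%, and TGACG by 24.5%. In NFKB2 the first capital stretch holds overlapping matches on both strands. The search covered 15 genes, of which 13 had an entry: the 12 listed genes with a called locus at the start (FOS, ATF3, NR4A1, NR4A2, KLF6, CDKN1A, NOTCH3, HES1, CCR9, RAG1, RELB and BCL3) and EGR1, NFKB2 and TNFAIP3. The κB consensus was found in 4 of them (BCL3, NFKB2, TNFAIP3 and HES1), the CArG box in EGR1 alone, and TGACG in FOS, EGR1, NFKB2 and HES1. TGACGTCA (1.84% of all promoters) and TGANTCA (7.73%) were found in 0. A match describes the letters and is not evidence of binding. An absence holds only for the stretch searched, from 250 bases before to 50 bases after a start.

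The strongest H3K27ac was at the same places in both libraries, and the gained and lost loci were weak. Every one of the 5000 strongest DMSO peaks was overlapped by a peak of the 4 h list, and so was every one of the 5000 strongest 4 h peaks in DMSO. Of the second 5000 DMSO peaks the share was 99.9%, of the fourth 5000 it was 72.8%, and of the sixth and last 5000 it was 28.9%. In all, 22109 loci (58.7%) were marked in both, 7748 were gained (20.6% of all loci) and 7833 were lost (20.8%). The knockout cells at 2 h against their own DMSO gave 18.1% gained and 18.2% lost by the same rules, at another time and in other libraries. Whether the parental shares exceed the spread of repeated libraries cannot be read from 1 library per condition.

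**Figure D1:**
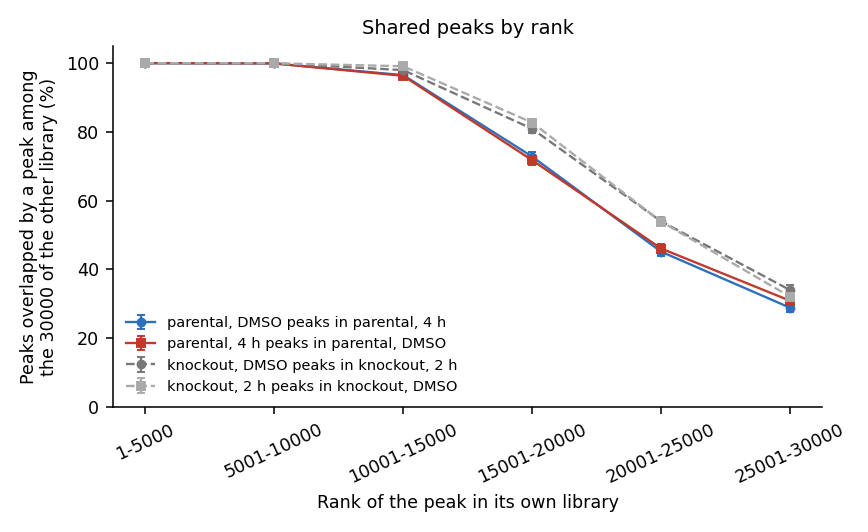
Share of peaks (vertical axis, percent) overlapped by one of the 30000 peaks of the other library, by the peak's rank in its own library (horizontal axis, bins of 5000). Bars are Wilson 95% intervals for counting error over peaks only; the share is at or near 100% through rank 10000 and falls to between 28.9% and 34.0% in the last bin in all 4 curves.

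The gained loci had a median rank of 24306.5 at 4 h and a median covered length of 350 bp, and the lost loci a median rank of 24441 in DMSO and 395 bp. Loci marked in both had a median of 1295 bp in DMSO and 1248 bp at 4 h. Only 4 gained and 4 lost loci came from the 10000 strongest peaks of their library. Most had a weaker deposited peak in the other library: 5911 of the 7748 gained loci had one in DMSO, with a median rank of 52656, and 6224 of the 7833 lost loci had one at 4 h, with a median rank of 51018.5. Of these peaks, 1746 in DMSO and 1865 at 4 h ranked within the next 10000 places after the 30000 listed. That left 1837 gained (23.7%) and 1609 lost (20.5%) with no deposited peak of any strength in the other library. The background recovered from the authors' p and fold was 0.603 fragments per base in DMSO and 0.570 at 4 h, and the 30000 peaks covered 36.3 Mb and 34.0 Mb. The part of these differences in the calls was not tested.

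The other 4 libraries, which did not choose the loci, each marked a minority of the gained and of the lost loci. Of the gained loci, knockout DMSO marked 1847 (23.8%) and knockout 2 h marked 1848 (23.9%). Of the lost loci, the same libraries marked 2453 (31.3%) and 2447 (31.2%). The parental 2 h library marked 26.9% of the gained and 24.4% of the lost loci. The knockout 4 h library, whose background was only 0.168 fragments per base, marked 30.5% and 21.1%. None of the other 4 libraries marked 3447 gained (44.5%) and 3355 lost loci (42.8%). Of the kept loci, those marked in both without a called change in width, parental 2 h marked 88.9% and knockout DMSO 91.1%.

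RELB was the strongest of all gained loci. It encodes a subunit of the noncanonical NF-kB dimer, and its start at chr19:45504396-45505531 ranked 7940 at 4 h with a fold of 5.62 over local background. In DMSO the place held only a weaker deposited peak at rank 31411, with a fold of 2.84. With all deposited peaks, parental DMSO covers 1035 bp of the 1136 bp of the RELB locus, and the difference at 4 h was 101 bp. At 2 h the RELB start ranked 11167, and in the knockout libraries it ranked 23035 in DMSO, 15064 at 2 h and 27550 at 4 h. Both treated parental libraries thus ranked it above parental DMSO, and the knockout 2 h library ranked it above knockout DMSO. The parental 2 h and 4 h readings share the DMSO library.

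NFKB2, the gene of RELB's partner subunit, was marked in both parental libraries and kept its width. Its start ranked 27099 in DMSO, 15723 at 2 h and 12328 at 4 h, while the knockout libraries ranked it 20473 in DMSO and 14960 at 2 h and left it outside the list at 4 h. It was the NF-kB gene with the greatest rise in rank among those marked in both. BCL3, a nuclear cofactor of NF-kB, was gained at chr19:45250611-45251775 at rank 22705, over a DMSO peak of rank 103376. With all deposited peaks, parental DMSO covers 1100 bp of the 1165 bp of the BCL3 locus. Its other readings were mixed: it was outside the list at parental 2 h and at knockout 2 h and 4 h, and ranked 25981 in knockout DMSO.

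The inhibitors of NF-kB and most other targets did not follow this direction. TNFAIP3, a ubiquitin-editing inhibitor of the pathway, was among the strongest peaks of the DMSO list at rank 17, and ranked 142 at 2 h and 390 at 4 h. NFKBIA, the gene of the inhibitor IκBα, ranked 1441, 1801 and 2559 in the same order. NFKB1 ranked 10100 in DMSO and 7469 at 4 h, but 12372 at 2 h. Of the 10 NF-kB genes examined, 2 had a gained locus at the start and 0 a lost, widened or narrowed one. Over all loci 20.6% were gained, but that share counts loci at any place, not gene starts alone. Of the 8 NF-kB genes marked in both, 2 ranked higher at 4 h and 6 lower, with a median change of −316.5 places. Over all loci marked in both, 50.3% ranked higher, with a median of 9 places higher.

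**Figure D2:**
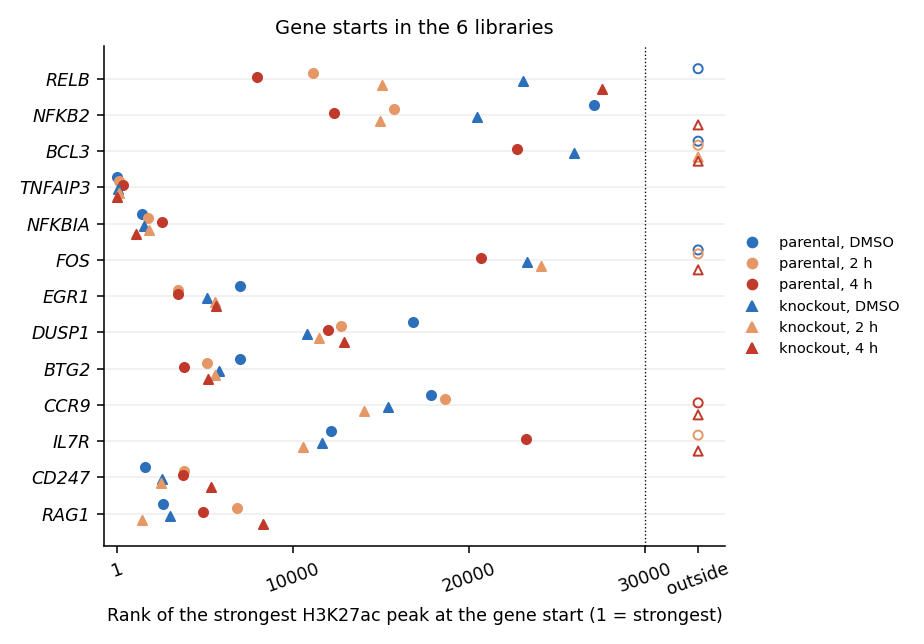
Rank of the strongest H3K27ac peak within 2000 bp of each gene's start (horizontal axis, 1 is the strongest) in the 6 libraries. Circles are parental and triangles knockout cells, colours give the treatment, and open symbols mark a start outside the 30000 strongest peaks; RELB and NFKB2 stand left of their DMSO reading at both parental times, and TNFAIP3 stays at rank 390 or stronger in all 6.

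Among 24 immediate early genes, 22 starts were marked in DMSO and 23 at 4 h, the added one being FOS. FOS, a subunit of the transcription factor AP-1, was gained at chr14:75745063-75746227 at rank 20665 with 1165 bp, over a weaker DMSO peak at rank 43389. At 2 h its peak stood just outside the list, at rank 30504. Untreated knockout cells ranked it 23313 and knockout 2 h 24062, so the mark at FOS was within the list there without camptothecin. FOSL1 was outside the list in all 6 libraries.

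EGR1, a zinc-finger transcription factor, ranked 7012 in parental DMSO, 3498 at 2 h and 3499 at 4 h. Its knockout readings lay closer together, at 5111 in DMSO, 5567 at 2 h and 5619 at 4 h. The covered length at its start was 1616, 1540 and 1658 bp in the parental libraries, a difference well under the 1000 bp that called a change of width. DUSP1, a phosphatase that switches off MAP kinases, ranked 16802, 12716 and 11998 in the parental libraries and 10815 in knockout DMSO. BTG2, an antiproliferative gene that is also a p53 target, ranked 7003, 5151 and 3843. These 3 genes were chosen after their values were seen. IER3, IER5, DUSP2, ZFP36, JUNB, MCL1, NR4A1, NR4A2 and NR4A3 ranked lower than in DMSO at both times.

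The orphan nuclear receptors NR4A1 and NR4A2 were the widened loci of the immediate early list. The NR4A2 locus, chr2:157188731-157191517, covered 1146 bp in DMSO, 1158 bp at 2 h, then 2754 bp at 4 h, and between 2050 and 2270 bp in the 3 knockout libraries. One of the loci at NR4A1, chr12:52444350-52446747, covered 904 bp in DMSO (1383 bp with all deposited peaks), 2180 bp at 2 h, then 2398 bp at 4 h. In knockout DMSO it covered 1407 bp and at knockout 2 h 1328 bp. NR4A2 fell in rank as it widened, from 12377 to 16250. The p of a broad peak is an average over its length.

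KLF6, a zinc-finger factor, was narrowed at chr10:3825605-3828351, from 2699 bp in DMSO to 1585 bp at 4 h, with 1414 bp at 2 h and 1595 bp in knockout DMSO. Its rank hardly moved, from 5704 to 5626. ATF3, a stress-induced factor, had a lost locus of 827 bp beside a kept one whose rank was 9407 in DMSO and 8263 at 4 h. With all deposited peaks, the 4 h library covers all 827 bp of that lost locus. The list as a whole showed little common direction: 1 gained, 1 lost, 2 widened and 1 narrowed gene of 24, and 12 of the 22 starts marked in both ranked higher at 4 h (median 340.5 places higher). Over all loci 20.6% were gained and 20.8% lost, and of those marked in both 1.28% widened, 2.7% narrowed and 50.3% ranked higher. At 2 h, 11 of the 22 ranked higher and 11 lower. JUNB ranked 4261 in DMSO and 5355 at 4 h, whereas JUN ranked 8602 and 6967 and JUND 6180 and 4661.

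Most starts of T-lineage genes ranked lower at 4 h. Of 27 such starts marked in both, 20 ranked lower and 7 higher, and the median change was −857 places, beside 49.7% ranking lower over all loci marked in both. The reference genes (ACTB, GAPDH, RPLP0, EEF1A1, TBP, PGK1) also ranked lower in 4 of 6, with a median change of −548.5 places. At parental 2 h 15 of 26 T-lineage starts ranked lower, and in the knockout at 2 h 13 of 26 did, where 48.9% of all loci marked in both ranked lower and 51% higher. No test of these counts was run, and the genes are not replicates.

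**Figure D3:**
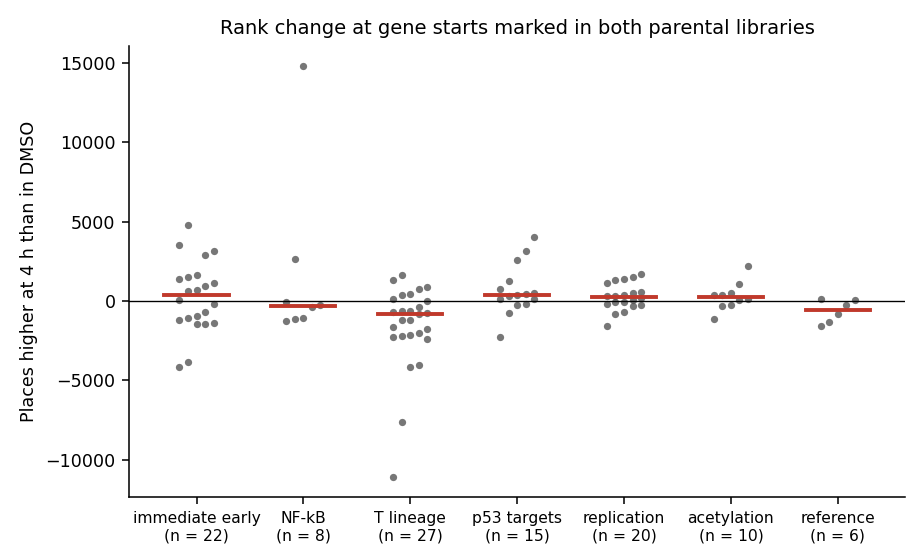
Places by which each gene start ranked higher at 4 h than in DMSO (vertical axis, negative values are lower at 4 h), for starts marked in both parental libraries, by gene list. Points are genes and red lines medians; the T-lineage median lies at −857 and the largest rise, among the NF-kB genes, is NFKB2.

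CCR9, the receptor for a gut-homing and thymic chemokine, was the T-lineage gene with a lost start. Its locus, chr3:45929051-45930731, covered 1681 bp in DMSO, 1663 bp at 2 h, then 0 bp at 4 h, where a weaker peak of rank 34768 was deposited. That peak was 2906 bp wide with a fold of 2.16 and covers 1646 bp of the locus. It covered 1626 bp in knockout DMSO and 1673 bp at knockout 2 h. IL7R, the interleukin 7 receptor, ranked 12167 in DMSO, was outside the list at 2 h and ranked 23249 at 4 h, against 11640 and 10595 in knockout DMSO and 2 h. CD247, the zeta chain of the T-cell receptor complex, ranked 1616, 3834 and 3767 in the parental libraries, and SATB1, a chromatin organiser of T cells, 1617, 1979 and 2804. Knockout DMSO and 2 h ranked CD247 2573 and 2534, and SATB1 2601 and 2195.

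NOTCH3, a receptor active in T-cell leukemia, was narrowed at chr19:15308110-15311782 from 3536 to 2091 bp, with 1487 bp at 2 h. HES1, a NOTCH target, and RAG1, a recombinase gene, each had a small gained locus beside a kept one. With all deposited peaks, parental DMSO covers 753 bp of the gained HES1 locus and all 306 bp of the RAG1 one. The HES1 locus of 876 bp was also marked at parental 2 h (858 bp) and in knockout DMSO (804 bp), and the RAG1 locus of 306 bp was marked in the same libraries (289 bp in each). At both positions parental DMSO and knockout 4 h were the unmarked libraries. ETS1, by contrast, ranked 1794 in DMSO and 936 at 4 h.

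The labelled cell type was checked on markers. All 7 T-lymphoblast markers (CD3D, CD3E, CD247, CD5, CD7, LCK, TCF7) were marked at the start in both libraries. None of 4 myeloid, 3 erythroid and 3 fibroblast markers was. Of 3 B-cell markers (MS4A1, CD79A, PAX5), CD79A was marked in both and the other two in neither.

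Other lists held 1 called locus in all. Of 18 p53 targets, CDKN1A, the gene of the cell-cycle inhibitor p21, was narrowed at chr6:36646568-36648872 from 2305 to 1041 bp, with 817 bp at 2 h and 797 bp in knockout DMSO. CDKN1A ranked 22953 in DMSO and 22806 at 4 h. Of 15 p53 targets marked in both, 11 ranked higher at 4 h, with a median of 356 places, beside 50.3% and 9 places over all loci marked in both. In the knockout at 2 h, 10 of 16 ranked higher, with a median of 274 places. XPC, a DNA-damage sensor, ranked 8257 in DMSO, 3351 at 2 h and 5680 at 4 h, and ZMAT3 ranked 1439, 2723 and 3722. All 20 topoisomerase and replication genes were marked in both, with 0 called loci, and 12 ranked higher, beside 50.3% of all loci marked in both. TOP1, the gene of the drug's target, ranked 886 in DMSO, 1014 at 2 h and 608 at 4 h. CHEK1, the checkpoint kinase gene, ranked 780, 405 and 309. TOP2A and TOP2B were among the 8 that ranked lower at 4 h, TOP2A at 584 in DMSO and 891 at 4 h, TOP2B at 303 and 529. The 10 genes of acetylation writers, readers and erasers were likewise marked in both with 0 called loci, and 7 ranked higher at 4 h. EP300 ranked 1111 in DMSO, 1274 at 2 h and 755 at 4 h. Over all loci 20.6% were gained and 20.8% lost. The starts of the replication and acetylation lists, however, all ranked within the 10000 strongest peaks of both libraries. Only 4 gained and 4 lost loci came from that range, so 0 called loci does not set these genes apart.

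Widening and narrowing were uncommon, and narrowing was the more frequent. Of the 22109 loci marked in both, 282 widened (1.28%) and 596 narrowed (2.7%). The knockout at 2 h gave 437 widened (1.88%) and 470 narrowed (2.02%) of 23235. Over all parental loci marked in both, the median ratio of covered length at 4 h to DMSO was 0.986, beside the 0.945-fold background of the 4 h library, and its part in the excess of narrowing was not tested. Dividing by that ratio left 308 widened and 569 narrowed. Widened loci covered a median of 974.5 bp in DMSO and 2322 bp at 4 h, and narrowed loci 2516 and 1040 bp. The smallest changes called were 1000 bp for widened and 1001 bp for narrowed loci, and the largest change of at least 1.5 times that was not called was 999 bp. Rank and width moved oppositely in most: 229 of 282 widened loci ranked lower at 4 h and 425 of 596 narrowed loci ranked higher.

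**Figure D4:**
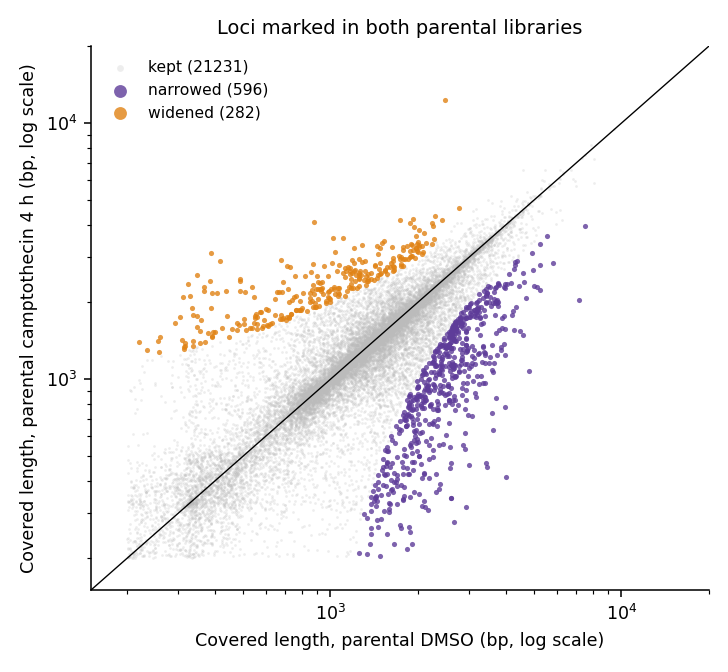
Covered length in bp of each locus marked in both parental libraries, DMSO on the horizontal and camptothecin 4 h on the vertical axis, both logarithmic. The line marks equal length; 21231 grey loci were kept, 282 orange loci widened and 596 purple loci narrowed, and the isolated orange point near 12358 bp is the interval on chromosome 1 described in the text.

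Knockout DMSO and knockout 2 h lay between parental DMSO and 4 h in their mean covered length at these loci. At the widened loci the mean covered length was 1058 bp in parental DMSO, 1149 bp at 2 h, then 2442 bp at 4 h, against 1362 bp in knockout DMSO and 1418 bp at knockout 2 h. At the narrowed loci it was 2591, 1085 and 1115 bp in the parental libraries, against 1580 and 1513 bp in knockout DMSO and 2 h. Knockout 4 h, with its background of 0.168 fragments per base, covered 494 bp and 496 bp. With all deposited peaks counted, the parental means were 1219, 1533 and 2442 bp at the widened and 2591, 1565 and 1300 bp at the narrowed loci. The parental DMSO and 4 h values chose the loci, and the 2 h difference from DMSO shares that DMSO library.

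The most widened locus, chr1:228759690-228772047, lies in the tandem array of 5S ribosomal RNA genes and covered 2478 bp in DMSO, 3265 bp at 2 h, then 12358 bp at 4 h. All deposited peaks, those beyond the 30000 included, cover 10314, 9621 and 12358 bp there, a difference of 2044 bp. The copies of that array are nearly identical, so the placement of reads there is uncertain. ZNF683, a transcription factor of tissue-resident lymphocytes, widened at its start (chr1:26696696-26700847) from 880 to 4120 bp. At 2 h it covered 620 bp, and knockout DMSO and 2 h covered 2790 and 3075 bp. With all deposited peaks the ZNF683 difference was 1719 bp, from 2401 bp in DMSO. An interval within ELF1, an ETS-family factor (chr13:41528545-41531430), went from 418 to 2886 bp, or from 1387 bp with all deposited peaks, and one within MRTFA, a cofactor of serum response factor (chr22:40856112-40860319), from 1733 to 4172 bp. The MRTFA difference was the same with all deposited peaks, but −1733 bp with 15000 peaks per library. The interval covered 2561 bp at 2 h, 2563 bp in knockout DMSO and 1763 bp at knockout 2 h.

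A locus near CXCR4, a chemokine receptor, at chr2:136888801-136891353 covered 347 bp in DMSO, 374 bp at 2 h, then 2550 bp at 4 h, and 349 and 394 bp in knockout DMSO and 2 h. All deposited peaks cover 1487, 1725 and 2550 bp there in the parental libraries and 1587 and 1672 bp in knockout DMSO and 2 h, and with 15000 peaks per library the difference was −347 bp. The CXCR4 start itself was marked in both and ranked 1884 in DMSO and 2946 at 4 h. Beyond the end of MYB, a transcription factor of lymphoid progenitors, chr6:135540489-135544847 covered 2279 bp in DMSO, 1787 bp at 2 h, then 4356 bp at 4 h. With 15000 peaks per library its difference was −1815 bp. Of the 15 most widened loci, 11 covered more at parental 2 h than in DMSO, a comparison that shares the DMSO library by which they were chosen. Knockout 2 h covered more than knockout DMSO in 11 of these 15. With all deposited peaks the difference at 4 h moved by over 1.5 times in 10 of the 15.

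Within IFNAR2, an interferon receptor subunit, chr21:34614658-34618670 went from 4013 through 2014 to 414 bp, with 2377 bp in knockout DMSO and 3083 bp at knockout 2 h. All deposited peaks cover 1766 bp there at 4 h. Within RUNX1, a hematopoietic transcription factor, chr21:36292986-36296471 went from 3426 through 1820 to 473 bp, with 2441 and 2521 bp in knockout DMSO and 2 h. All deposited peaks cover 1684 bp at 4 h, and with 15000 peaks per library the RUNX1 difference was 473 bp. In these intervals knockout DMSO and 2 h lay between parental DMSO and 4 h.

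The CD99 start, chrX:2609124-2616595, covered 7472, 4577 and 3963 bp in the parental libraries, and 6528 and 4709 bp in knockout DMSO and 2 h. All deposited peaks cover 5102 bp there at parental 4 h. CD99 lies in a region whose sequence X and Y share, so the placement of reads there is uncertain. Intervals within ZMIZ1 (5229 to 2234 bp), a NOTCH1 cofactor, and within CXCR5 (4496 to 1542 bp), a chemokine receptor, also narrowed, to 3330 and 3060 bp with all deposited peaks. With 15000 peaks per library the CXCR5 difference was 1542 bp. With all deposited peaks the difference moved by over 1.5 times in 6 of the 14 narrowed loci. All 14 of the most narrowed loci described here covered less at parental 2 h than in DMSO, a comparison that shares the DMSO library by which they were chosen. Knockout 2 h covered more than knockout DMSO in 10 of these 14.

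**Figure D5:**
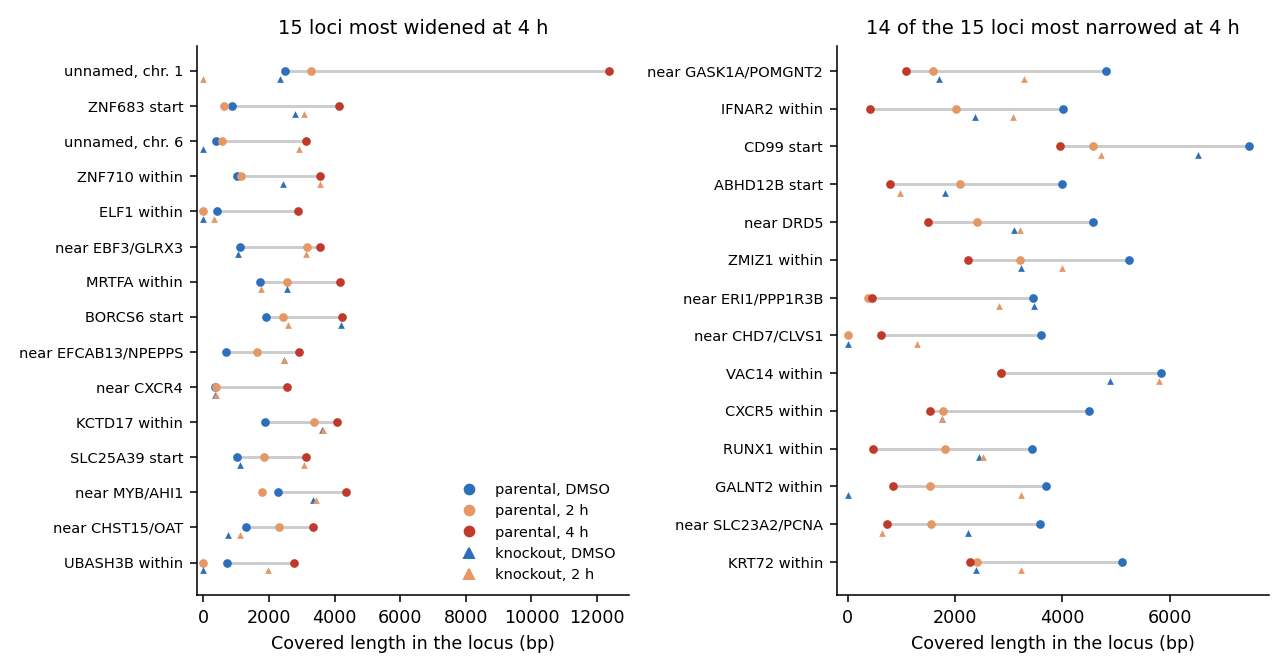
Covered length in bp (horizontal axis) of the 15 most widened loci and 14 of the 15 most narrowed loci in 5 libraries, circles for parental and triangles for knockout cells. "Start", "within" and "near" give the position relative to the named gene, among the genes placed from general knowledge; in the narrowed panel every 2 h circle lies left of the DMSO circle.

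The strongest lost loci were short intervals, away from the starts of those genes that were placed from general knowledge. Starts of other genes were not looked for. The first, chr21:34673759-34674065 between IL10RB and IFNAR1, ranked 7932 in DMSO and 16310 at 2 h, and held only a peak of rank 43582 at 4 h. Knockout DMSO and 2 h ranked it 16691 and 20360. An interval within PTPRM, a receptor phosphatase (chr18:7773507-7774042), ranked 9942 in DMSO, 29756 at 2 h and 34978 among the deposited 4 h peaks, whereas knockout DMSO and 2 h ranked it 10315 and 9643. One near WEE1, a mitotic checkpoint kinase (chr11:9622625-9623450), ranked 10109 in DMSO and 30855 among the deposited 4 h peaks. Of the 15 strongest lost loci, 13 had some deposited peak at 4 h. The exceptions were an interval near TNFSF8 (chr9:117708963-117709336) and one within KANSL1 (chr17:44272871-44273131).

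After RELB, the strongest gained loci were likewise short. An interval within CUL4A, a ubiquitin ligase scaffold (chr13:113916988-113917429), ranked 8492 at 4 h with a DMSO peak at rank 35583, and one within HACL1 (chr3:15634095-15634612) ranked 10392 with a DMSO peak at rank 121623. All 15 had a weaker deposited DMSO peak, and 11 were marked in knockout DMSO.

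The widest gained and lost loci had low ranks. Within SPTBN1, a spectrin gene, chr2:54829437-54833958 covered 0 bp in DMSO, 2584 bp at 2 h, then 4522 bp at 4 h, but 3529 bp in knockout DMSO. A DMSO peak beyond the 30000 covers 3479 bp of it, with a fold of 2.37 against 2.52 at 4 h, a difference of 1043 bp. The start of MXI1, an antagonist of MYC-family factors, at chr10:111967229-111971144 was within the 30000 at 4 h alone of all 6 libraries, with 3916 bp at rank 29635. Weaker peaks cover 3772 bp in DMSO, 3747 bp in knockout DMSO and 3757 bp at knockout 2 h, and the difference was 144 bp with all deposited peaks. Within TCF7, a T-cell transcription factor, chr5:133455251-133460175 covered 4925 bp in DMSO and 0 bp at 2 h and 4 h, against 4907 and 4925 bp in knockout DMSO and 2 h. All deposited peaks cover 4925 bp at 2 h and 4908 bp at 4 h, with folds of 1.42 in DMSO, 1.42 at 2 h and 1.41 at 4 h, so the difference was then −17 bp. The start of TCF7 kept its mark, at rank 12922 in DMSO and 11591 at 4 h. Within MYO1A, chr12:57420963-57425907 showed the same order, with 4945 bp in DMSO, 0 bp at 2 h and 4 h, and 4879 and 4880 bp in knockout DMSO and 2 h. All deposited peaks cover 4026 bp of it at 2 h and 4914 bp at 4 h, a difference of −31 bp, with folds of 2.49, 2.40 and 2.34. All 10 of the widest lost loci held a weaker deposited 4 h peak.

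Among the strong loci, changes of rank were few. Of 5610 loci with a peak among the 5000 strongest of either library, 9 ranked higher at 4 h by over 5000 places and 22 ranked lower. Over all loci marked in both, 1536 (6.95%) ranked higher by that margin and 1706 (7.72%) lower, against 6.06% and 5.72% in the knockout at 2 h. VPS72, a chromatin remodeler subunit, at chr1:151161377-151163207 ranked 8498 in DMSO, 9029 at 2 h and 2074 at 4 h. Untreated knockout cells ranked it 2566 and knockout 2 h 7845. DCTN2, a dynactin subunit, at chr12:57939833-57941153 ranked 6983, 2902 and 1187, and EEF1E1 at chr6:8101219-8103059 ranked 9572, 5266 and 4111. EEF1E1 fell in covered length from 1830 bp in parental DMSO to 727 bp at 4 h. In knockout DMSO and 2 h, DCTN2 ranked 6126 and 3490 and EEF1E1 ranked 6755 and 4102.

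The locus near PRKCQ, a kinase downstream of the T-cell receptor, at chr10:6707218-6707986 ranked 673 in DMSO, 2995 at 2 h and 8526 at 4 h. Knockout DMSO and 2 h ranked it 2979 and 3115. Near CD1A, an antigen-presenting molecule of cortical thymocytes, chr1:158216596-158217040 ranked 4441, 9974 and 10324, against 2661 and 4211 in knockout DMSO and 2 h. Between GIMAP6 and GIMAP2, lymphocyte GTPases, chr7:150364996-150365464 ranked 3809, 9622 and 9221. These loci were picked for their change after the values were seen.

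Called loci lay farther from the strongest peaks than kept ones, but this contrast is partly built in. The strongest peaks lie mostly in kept loci themselves, and 0 gained or lost loci came from the 5000 strongest of their library. The median distance to the nearest of the 5000 strongest peaks of either library was 166 kb for gained, 137 kb for lost, 63.2 kb for widened, 74.2 kb for narrowed and 47.6 kb for kept loci. Another gained locus lay within 100 kb of 47.4% of the gained loci and a lost one within 100 kb of 47.3%. For lost loci the shares were 53.2% with another lost locus and 49.6% with a gained one. By chromosome, the share of gained among gained and lost loci ranged from 42.4% on chromosome 20 to 54.2% on chromosome 13. Chromosome 19 had the fewest gained or lost loci for its number, 25.2%, and chromosome 13 the most, 50.2%.

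Some domains lost several loci together. In windows of 200 kb, 33 of 11074 had a net of at least 5 lost or narrowed loci and 12 a net of at least 5 gained or widened. The window between GATB and FBXW7, chr4:152800001-153000000, had 9 lost or narrowed and 0 gained or widened of 10 loci. Its covered length was 11724 bp in DMSO, 3737 bp at 2 h, then 2947 bp at 4 h, and 8164 and 9146 bp in knockout DMSO and 2 h. The window at the start of ETV6, a repressor of the ETS family (chr12:11800001-12000000), had 8 lost or narrowed of 27 loci and covered 27129, 18075 and 20746 bp in the parental libraries, and 20134 and 22875 bp in knockout DMSO and 2 h. The window next to SATB1, chr3:18000001-18200000, had 8 lost or narrowed and 1 gained or widened of 16 loci and covered 17349, 8086 and 8402 bp. The windows were chosen on the difference between 4 h and DMSO, and the 2 h difference shares that DMSO library. How many such windows would arise without a change was not tested.

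The window at RHOH, a GTPase of T-cell receptor signalling (chr4:40200001-40400000), went the other way. It had 6 gained or widened and 1 lost or narrowed of 29 loci, and covered 32275 bp in DMSO, 32723 bp at 2 h, then 41387 bp at 4 h. Knockout DMSO and 2 h covered 26559 and 28447 bp. The window within GNAQ, a G protein subunit (chr9:80400001-80600000), covered 7872, 4906 and 15167 bp in the parental libraries. The windows, too, were picked after the values were seen.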

How the data were processed

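H3K27ac ChIP-seq peak lists of 6 CCRF-CEM libraries were used, 1 per condition per the labels. Per the submitters' processing notes, the build was hg19 and the tools included MACS2 2.1.2, Picard 2.9.2, SAMtools 1.8, BWA 0.7.17, Trimmomatic 0.39 and Trim Galore 0.6.2. The settings of these tools were not given in the sources used here. The deposited score, the fold (a ratio of pileup over local background), the −log10 p and the −log10 q are the authors' values, averaged over each broad peak. They served to rank, filter or describe peaks within a list. Peaks were called per library, not on pooled samples.

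Loci were built, measured and counted in Python 3.11.15 with pandas 2.3.3, and the steps were tested on simulated lists. The background per base was solved from the commonest combination of fold and p in each list. The DMSO and 4 h libraries held 171713 and 178140 peaks on chromosomes 1 to 22 and X. Read counts were not used, so depth is known only through that background.

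Gene positions on hg19 were written from general knowledge, the flanking genes after the loci were seen, so "near" means the nearest gene so placed. All 263 genes lay on the same chromosome as in RefSeq on GRCh38.p14, and 240 of 240 neighbouring pairs in the same order, and 114 of 142 gene lengths were within 10%. Histone gene clusters were not analysed here. The loci named are the 15 strongest gained and lost, the 10 widest, the 15 most widened and narrowed, and list genes with a called start. Of these, 1 narrowed locus and 1 marker gene are not reported here. Other loci were chosen after their values were seen. The members and gene lists were chosen with earlier results of these data known. Coordinates are 1-based.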

Additional observations from a re-analysis of the deposited data

Results flagged for a closer look

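Peaks on sequences other than chromosomes 1 to 22 and X entered no comparison. The parental 4 h list holds 3437 of them and the parental DMSO list 3130, and they are listed here because the 4 h number is above that of the control.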

How the results depend on the processing

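With 1 library per condition the counts have no replicate spread, and the depth known only from the background limits them. Lists of equal length fix gained and lost loci to be about equal, and both counts depended on the number kept: 1480 gained and 1504 lost with 15000 peaks per library, 18553 and 18695 with 50000. Where a −log10 q of 5 set the lists, which are then unequal, they were 768 and 1693. Lists of equal covered length (50 Mb) gave 22882 and 17686. Against all deposited peaks 1837 and 1609 had no partner. Narrowed loci outnumbered widened ones in every alternative run: 84 widened and 224 narrowed with 15000 peaks, 655 and 1091 with 50000, 58 and 189 with the q limit, 736 and 1122 with 50 Mb, 898 and 1401 with a minimum change of 500 bp, and 19 and 73 with 2000 bp. Rank shifts over 5000 places, higher and lower, were 51 and 77 with 15000 peaks, 4952 and 5446 with 50000, 30 and 42 with the q limit, and 4938 and 6322 with 50 Mb. Ranking by fold gave 2310 higher and 2458 lower. Dividing covered lengths by their median ratio was chosen after seeing the data and kept both counts within 1.5 times.

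With 5000 bp around a start, B-cell markers ranking higher went from 0 to 1, and fibroblast and T markers with a called locus each from 0 to 1. T-lineage genes with a lost locus went from 1 to 3, and NF-kB genes with a lost locus from 0 to 1. At that distance 1 erythroid marker was marked in both parental libraries and 1 fibroblast marker in DMSO. The covered length of named loci at 4 h minus DMSO changed sign with 15000 peaks in 7 of 15 widened and 3 of 14 narrowed loci, where one library's peak fell outside the shorter list: −1022 bp in ZNF710, −1101 bp near EBF3, −1733 bp in MRTFA, −677 bp near NPEPPS, −347 bp near CXCR4, −1881 bp in KCTD17, −1815 bp near MYB, 1494 bp near DRD5, 1542 bp in CXCR5 and 473 bp in RUNX1. With 50000 peaks, 50 Mb or all deposited peaks all 15 widened and all 14 narrowed loci kept their direction, but with all deposited peaks 10 and 6 of them moved by over 1.5 times. Of the 25 named gained and 25 named lost loci, 20 and 24 kept their direction with all deposited peaks and 15 and 15 with 15000 peaks, and the others showed no difference. With all deposited peaks the size moved by over 1.5 times in 25 and 23. No paired analysis was possible because each condition has 1 library.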
